A study of Homo sapiens with 8 samples.

Results

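Catecholamine synthesis and transport genes are described here in the human neuroblastoma lines CHLA-20 and NGP: 4 enzymes of the synthesis chain (TH, DDC, DBH and PNMT), the cofactor enzyme GCH1, 3 transporters (SLC6A2, SLC18A1 and SLC18A2) and the breakdown enzyme MAOA. The 9 genes were taken by their Ensembl identifiers, named through GENCODE release 29, from 58721 genes counted in each library. All 9 were among the 19395 genes tested. PNMT and SLC18A1 passed the minimum on counts only through the CHLA-20 libraries, so for these genes a difference between the lines was bound to appear.

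RNA enriched for mRNA was sequenced from 4 groups of 2 libraries each, all of them after 6 days of treatment. CHLA-20 DMSO was CHLA-20 treated with the vehicle DMSO, and CHLA-20 JSK591 was the same line given the inhibitor of the arginine methyltransferase PRMT5. NGP DMSO and NGP JSK591 were the same pair of treatments in NGP. The inhibitor is JSK591 in the names of the libraries but GSK591 in the treatment text. Its dose is described as the IC50, with no concentration. CHLA-20 was grown in IMEM with serum, insulin, transferrin and selenite and NGP in RPMI1640 with serum, so a difference between the lines cannot be told apart from one between media. Each line stands for 1 culture model of a tumour, and nothing states that the 2 libraries of a group came from separate cultures. The p-values therefore set a difference against the spread between these libraries, which the test partly shares across genes and which may be technical.

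Catecholamines are made from tyrosine in a fixed chain. Tyrosine hydroxylase (TH) makes L-DOPA with tetrahydrobiopterin as cofactor, aromatic amino acid decarboxylase (DDC) turns it into dopamine, dopamine beta-hydroxylase (DBH) makes noradrenaline inside the vesicle, and PNMT methylates noradrenaline to adrenaline. GCH1 starts the synthesis of tetrahydrobiopterin, the vesicular monoamine transporters SLC18A1 (VMAT1) and SLC18A2 (VMAT2) load the granules, the noradrenaline transporter SLC6A2 takes released noradrenaline back, and monoamine oxidase A (MAOA) breaks catecholamines down at the mitochondrial surface. Neuroblastoma arises from sympathetic precursors, which is why catecholamine products are used as tumour markers and SLC6A2 as the entry route of the tracer MIBG.

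The libraries held 33188542 to 34914902 counts in genes, and 3 counts, the floor used below, equalled at most 0.0904 CPM, the count scaled to library size. PRMT5 itself was at 45.7 CPM in CHLA-20 DMSO and 48.2 in CHLA-20 JSK591, and at 62.2 and 59.8 CPM in NGP. An inhibitor of the enzyme's activity need not change its transcript, so these values do not check the labels. Of 7 sympathetic neuroblast markers, 6 were above 1 CPM in every library, and the seventh, CHGA, was at 0 in 7 of 8 libraries with 1 count in the other. The summed level of the 7 markers was 4052 to 4105 CPM in CHLA-20 DMSO, 3006 to 3062 in CHLA-20 JSK591, 2290 to 2443 in NGP DMSO and 2198 to 2199 in NGP JSK591. Of the fibroblast markers, 6 of 6 in CHLA-20 and 5 of 6 in NGP were above 1 CPM, with summed levels of 491 to 492, 418 to 423, 696 to 710 and 791 to 829 CPM in the same order of groups. Schwann cell markers summed to 2.03 to 5.47 CPM, and no marker of adrenal cortex or blood reached 1 CPM in both libraries of any group. The neuroblast sum was lower with the inhibitor in both lines, and the fibroblast sum was lower with it in CHLA-20 and higher in NGP. The part of these sums in the results was not tested. Of 6 neuroblast markers tested, 6 fell in CHLA-20, beside 22.4% of all genes, with STMN2 going from 1694 to 1222 CPM on average. In NGP 4 fell and 2 rose, beside 19.4% and 16.8% of all genes. The fibroblast sum in NGP followed COL1A1 (547 and 637 CPM on average) and PDGFRA (109 and 132 CPM), while LUM and PDGFRB fell, and the median log2 change of the 6 markers was -0.10. In bulk RNA, fewer cells of a type and less RNA per cell cannot be told apart.

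JSK591 changed 7 of the 9 genes in CHLA-20, where 39.4% of all genes tested passed the same test. DBH, DDC, SLC6A2 and SLC18A1 rose, 4 of 9 against 16.9% of all genes, and TH, SLC18A2 and MAOA fell, 3 of 9 against 22.4%. In NGP 2 of the 9 changed, DDC and SLC6A2, both downward, against 36.2% of all genes (16.8% higher and 19.4% lower). The effects differed between the lines for 3 genes, DDC, SLC6A2 and MAOA, against 27.7% of all genes (15.2% with the larger value in NGP and 12.5% with the smaller). Between the vehicle groups all 9 genes differed, 8 of them lower in NGP and SLC6A2 higher, where 75.5% of all genes differed (36.6% higher and 38.9% lower). Between the JSK591 groups the 9 genes had the same directions, against 75.3% of all genes (37.3% higher and 38% lower). In both comparisons the lower genes included PNMT and SLC18A1, whose difference was bound to appear from the minimum on counts. The median log2 change of the 9 genes was 0.10 in CHLA-20 and -0.04 in NGP, beside -0.02 and 0.00 over all genes tested.

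**Figure D1:**
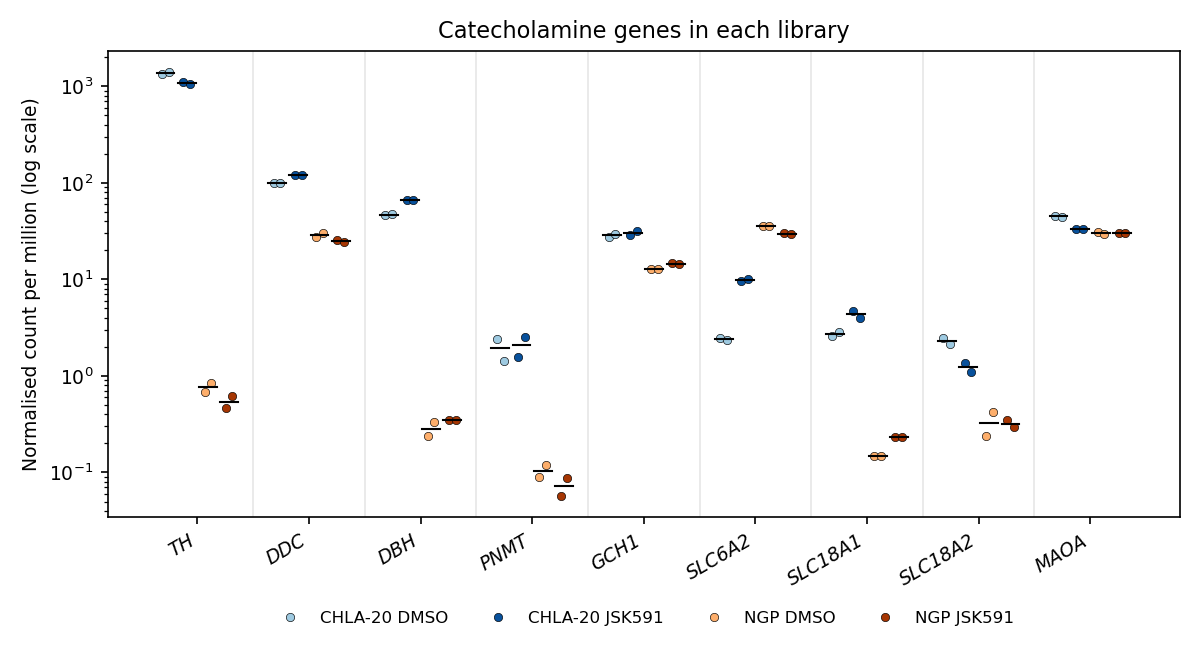
Normalised CPM (log axis) of each gene in each of the 8 libraries, as points, with the mean of the 2 libraries of a group as a bar. TH lies at 1052 CPM or more in all 4 CHLA-20 libraries and below 1 CPM in all 4 NGP libraries, and SLC6A2 is the gene whose NGP points lie above its CHLA-20 points.

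TH, the rate-limiting enzyme (ENSG00000180176.14, minus strand, chr11:2163929-2171877 in GRCh38), was the most abundant of the 9 genes in CHLA-20 per length. It had 1352 and 1409 CPM in the CHLA-20 DMSO libraries and 1099 and 1052 CPM in the CHLA-20 JSK591 libraries. In NGP it had 0.686 and 0.839 CPM with DMSO and 0.462 and 0.617 CPM with JSK591, from 16 to 28 counts a library. Both inhibitor libraries of CHLA-20 thus lay below both vehicle libraries, and TH was near the detection limit in NGP. TH fell in CHLA-20 by 0.36 ± 0.04 on the log2 scale (SE, edgeR quasi-likelihood test, adjusted p = 6.71e-13). In NGP the log2 change was -0.50 ± 0.30 (adjusted p = 0.207), with a 95% interval from -1.10 to 0.11, and the effects in the lines differed by -0.14 ± 0.30 (adjusted p = 0.797), with an interval from -0.74 to 0.46. The normalised counts of the vehicle groups differed 1811-fold, with a counting interval from 1377.5 to 2432.9.

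DDC (ENSG00000132437.17, minus strand, chr7:50458436-50565457) makes dopamine from L-DOPA and was well counted in both lines. CHLA-20 had 98.5 and 98.5 CPM with DMSO and 121.0 and 121.3 CPM with JSK591, and NGP had 27.4 and 30.4 CPM with DMSO and 25.4 and 24.2 CPM with JSK591. The inhibitor libraries were above the vehicle libraries in CHLA-20 and below them in NGP, with no overlap in either line. Such separation of 2 libraries from 2 is a weak sign by itself, here and for the genes below. In NGP the libraries of TH, DBH, PNMT, GCH1 and SLC18A1 were also separated, and none of these genes was called. The share of separated genes over all genes tested was not computed. DDC rose in CHLA-20 (log2 change 0.30 ± 0.04, adjusted p = 6.16e-08) and fell in NGP (log2 change -0.22 ± 0.06, adjusted p = 0.00224). The test of the difference between these effects gave -0.52 ± 0.07 (adjusted p = 8.69e-08). The call in NGP was lost without NGP DMSO replicate 2 (log2 change -0.16, adjusted p = 0.093) and without NGP JSK591 replicate 2 (-0.18, adjusted p = 0.0527).

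DBH (ENSG00000123454.11, plus strand, chr9:133635348-133659344), the enzyme that sets noradrenaline cells apart from dopamine cells, had 46.0 and 47.6 CPM in CHLA-20 DMSO and 66.7 and 66.1 CPM in CHLA-20 JSK591. The NGP libraries held 8 and 11 counts with DMSO and 12 and 12 with JSK591. DBH rose in CHLA-20 (log2 change 0.51 ± 0.05, adjusted p = 2.24e-12). The change in NGP was 0.30 ± 0.42 (adjusted p = 0.641), and its interval from -0.55 to 1.14 includes the size of the CHLA-20 change. The effects differed by -0.21 ± 0.44 (adjusted p = 0.79). DBH was 164.7-fold lower in NGP DMSO than in CHLA-20 DMSO, with a counting interval from 105.3 to 273.9.

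TH and DBH therefore moved in opposite directions in CHLA-20. Per length, in RPKM (the CPM divided by the exonic length in kilobases), TH was 34.4 ± 0.146 times DBH with DMSO and 18.8 ± 0.475 times DBH with JSK591 (mean ± SD, n = 2). The ratio of TH to DDC went from 13.6 ± 0.385 to 8.58 ± 0.284, and that of DDC to DBH from 2.54 ± 0.0613 to 2.20 ± 0.0175. These ratios describe the 4 libraries and were not tested on their own.

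PNMT (ENSG00000141744.3, plus strand, chr17:39667981-39670475), the adrenaline-forming enzyme of chromaffin cells, was low throughout. The CHLA-20 libraries held 82 and 48 counts with DMSO and 55 and 86 with JSK591, and the groups overlapped. NGP held 3 and 4 counts with DMSO and 2 and 3 with JSK591, at or near the floor of 3 counts, so no treatment fold is given there. In CHLA-20 the log2 change was 0.10 ± 0.24 (adjusted p = 0.783), and its sign turned without CHLA-20 DMSO replicate 2 (-0.21) or CHLA-20 JSK591 replicate 2 (-0.28).

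GCH1 (ENSG00000131979.18, minus strand, chr14:54842008-54902852), the first enzyme of tetrahydrobiopterin synthesis, had 27.7 and 29.6 CPM in CHLA-20 DMSO and 28.7 and 31.7 CPM in CHLA-20 JSK591. In NGP it had 12.8 and 12.8 CPM with DMSO and 14.7 and 14.5 CPM with JSK591. The groups overlapped in CHLA-20 and did not overlap in NGP. The log2 change was 0.08 ± 0.06 in CHLA-20 (adjusted p = 0.364, interval from -0.05 to 0.20) and 0.19 ± 0.08 in NGP (adjusted p = 0.0575). The NGP value passed the threshold with total count scaling (adjusted p = 0.0347), with a minimum of 10 counts in every library (0.0336) and with the trend on GC content removed (0.0473). The effects in the lines differed by 0.11 ± 0.10 (adjusted p = 0.461).

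SLC6A2 (ENSG00000103546.18, plus strand, chr16:55655604-55706192), the noradrenaline transporter, had the largest treatment change of the 9 genes in CHLA-20. It had 2.49 and 2.37 CPM in CHLA-20 DMSO and 9.58 and 10.1 CPM in CHLA-20 JSK591, from 84 and 80 counts against 332 and 339. In NGP it had 35.6 and 36.0 CPM with DMSO and 30.1 and 29.6 CPM with JSK591. SLC6A2 rose 4.04-fold in CHLA-20 (log2 change 2.02 ± 0.12, adjusted p = 4.69e-22) and fell in NGP (log2 change -0.26 ± 0.06, adjusted p = 0.000432). The effects differed by -2.28 ± 0.13 (adjusted p = 3.66e-21). A fold of at least 2 together with the adjusted p was met by 3.93% of all genes tested in CHLA-20, and by 1 of the 9 genes.

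SLC6A2 was also the 1 gene of the set with the higher level in NGP. The log2 difference between NGP and CHLA-20 was 3.88 ± 0.09 with DMSO (adjusted p = 1.81e-43) and 1.60 ± 0.07 with JSK591 (adjusted p = 7.51e-29). In all 4 groups the order was NGP DMSO, NGP JSK591, CHLA-20 JSK591, CHLA-20 DMSO, and no neighbours overlapped. A locus on the same strand, AC136621.1, covers 17.9% of the exonic bases of SLC6A2, and reads in the shared bases cannot be assigned to either by strand. AC136621.1 had 16 and 25 counts in CHLA-20 DMSO, 80 and 81 in CHLA-20 JSK591, 209 and 241 in NGP DMSO and 257 and 248 in NGP JSK591. It rose in CHLA-20 as SLC6A2 did (log2 change 1.95 ± 0.24, adjusted p = 8.66e-10), with 0.13 ± 0.12 in NGP (adjusted p = 0.431).

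SLC18A1 (ENSG00000036565.14, minus strand, chr8:20144855-20183206), the vesicular transporter typical of endocrine chromaffin cells, had 2.57 and 2.84 CPM in CHLA-20 DMSO and 4.70 and 4.01 CPM in CHLA-20 JSK591. SLC18A2 (ENSG00000165646.13, plus strand, chr10:117241073-117279430), the vesicular transporter typical of neurons, had 2.49 and 2.13 CPM with DMSO and 1.36 and 1.10 CPM with JSK591. At the same low starting level the first rose (log2 change 0.69 ± 0.17, adjusted p = 0.00064) and the second fell (-0.91 ± 0.24, adjusted p = 0.00156), in neither case with overlap. In counts, SLC18A1 had 87 and 96 against 163 and 135, and SLC18A2 had 84 and 72 against 47 and 37.

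In NGP both transporters were near the floor, with 5 to 8 counts a library for SLC18A1 and 8 to 14 for SLC18A2. Their log2 changes there were 0.63 ± 0.58 (adjusted p = 0.433) and -0.04 ± 0.47 (adjusted p = 0.972). The effects in the lines differed by -0.06 ± 0.79 for SLC18A1 (adjusted p = 0.983) and by 0.87 ± 0.53 for SLC18A2 (adjusted p = 0.241). Between the vehicle groups SLC18A1 was 18.1-fold lower in NGP (counting interval 9.64 to 38.4) and SLC18A2 7.02-fold lower (4.48 to 11.5). Genes on the other strand, PDZD8 above all, cover 56.1% of the exonic bases of SLC18A2, and whether the authors counted by strand is not given in the sources used here, so its counts are uncertain. PDZD8 was at 63.6 CPM in CHLA-20 DMSO and 60.3 CPM in CHLA-20 JSK591 (log2 change -0.08 ± 0.05, adjusted p = 0.217).

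MAOA (ENSG00000189221.9, plus strand, chrX:43654907-43746824), the mitochondrial oxidase, had 45.6 and 44.2 CPM in CHLA-20 DMSO and 33.4 and 33.2 CPM in CHLA-20 JSK591. In NGP it had 30.9 and 29.6 CPM with DMSO and 30.5 and 30.5 CPM with JSK591. It fell in CHLA-20 (log2 change -0.43 ± 0.06, adjusted p = 1.66e-09), to a level near that of NGP. In NGP the change was 0.01 ± 0.06 (adjusted p = 0.912), with an interval from -0.11 to 0.13, and the effects differed by 0.44 ± 0.08 (adjusted p = 1.38e-05). The line difference was -0.57 ± 0.06 with DMSO (adjusted p = 3.94e-14). With JSK591 it was -0.13 ± 0.06 (adjusted p = 0.0414), and this call was lost in 8 of the alternative settings, among them the omission of any 1 of the 4 JSK591 libraries (adjusted p from 0.0795 to 0.176).

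**Figure D2:**
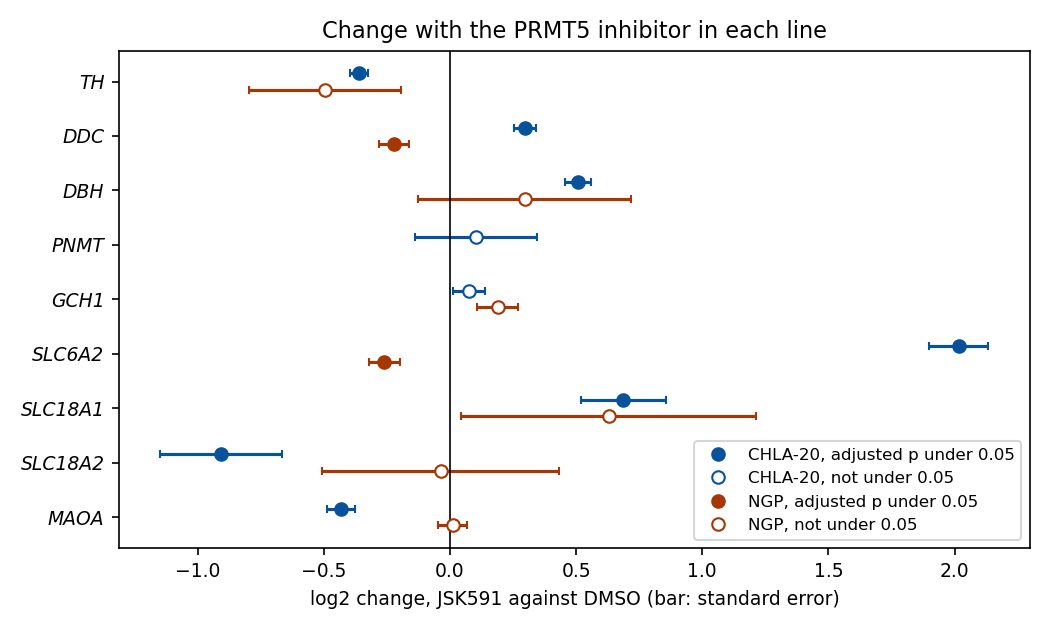
Log2 change with JSK591 against DMSO in each line for the 9 genes, with the standard error as the bar; filled points have an adjusted p under 0.05. PNMT in NGP is left out because its counts were at the floor. SLC6A2 stands at 2.02 in CHLA-20 and -0.26 in NGP, and DDC at 0.30 and -0.22.

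Set side by side per length, the lines held different mixtures of these transcripts. The summed RPKM of the 9 genes was 482 and 499 in CHLA-20 DMSO, 415 and 402 in CHLA-20 JSK591, 25.6 and 26.5 in NGP DMSO and 24.5 and 24.0 in NGP JSK591. TH made up 86.8% of the sum in CHLA-20 DMSO and 81.1% in CHLA-20 JSK591, DDC 6.41% and 9.46%, and DBH 2.53% and 4.30%. In NGP DMSO the sum consisted mostly of DDC with 35.3%, SLC6A2 with 25.1%, MAOA with 21.0% and GCH1 with 16.7%, and TH was 0.900%. By RPKM, TH ranked 71st among all genes tested in CHLA-20 DMSO and 15697th in NGP DMSO, whereas DDC ranked 1247th and 4449th and SLC6A2 14472nd and 5777th.

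**Figure D3:**
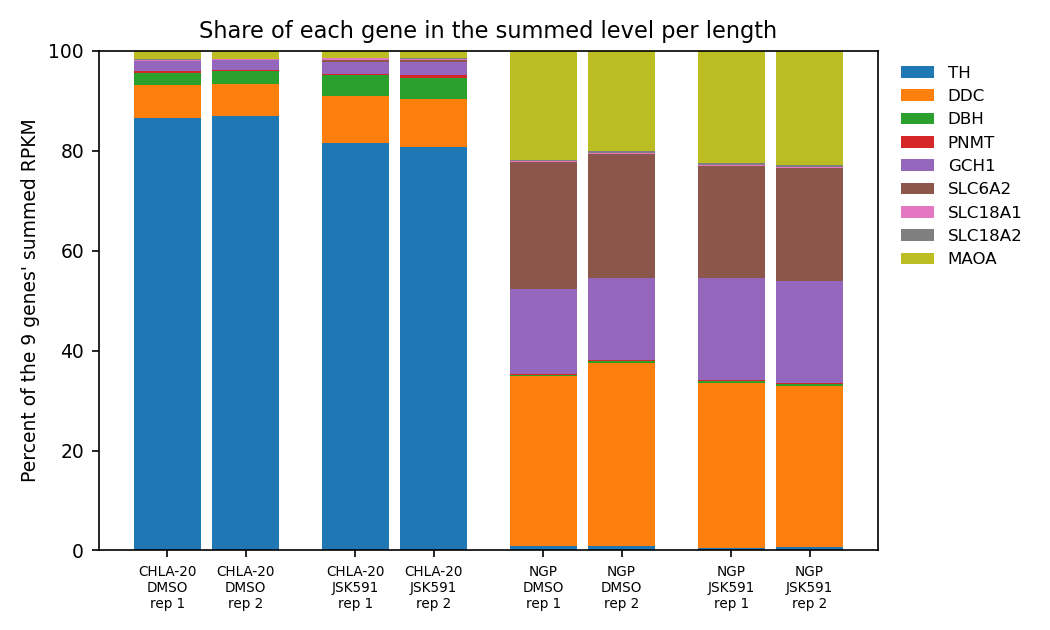
Share of each gene, in percent, in the summed RPKM of the 9 genes, 1 stacked bar per library. TH fills 80.6% to 87.0% of the sum in the CHLA-20 libraries and under 1% in the NGP libraries, where DDC, GCH1, SLC6A2 and MAOA fill nearly all of it.

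RefSeq promoter windows on GRCh38.p14, from 250 bases before to 50 after a start site, were at hand for 4 of the 9 genes. They are shown because they were the ones at hand. In CHLA-20, DDC and DBH went upward and SLC18A2 and MAOA downward. DDC has a pair of such windows, of which the upstream one is shown. The other, chr7:50561022-50561321, held no match to the motifs listed below. TH, PNMT, GCH1, SLC6A2 and SLC18A1 had no entry. Capitals mark matches, on either strand, to the cyclic AMP response element TGACGTCA, the AP-1 site TGANTCA, the TATA box TATAAA, the homeodomain core TAATTA, the GC box GGGCGG, the EGR site GCGNGGGCG and the NR4A monomer element AAAGGTCA. Each sequence reads along the strand of its gene.
DDC, chr7:50565356-50565655, minus strand: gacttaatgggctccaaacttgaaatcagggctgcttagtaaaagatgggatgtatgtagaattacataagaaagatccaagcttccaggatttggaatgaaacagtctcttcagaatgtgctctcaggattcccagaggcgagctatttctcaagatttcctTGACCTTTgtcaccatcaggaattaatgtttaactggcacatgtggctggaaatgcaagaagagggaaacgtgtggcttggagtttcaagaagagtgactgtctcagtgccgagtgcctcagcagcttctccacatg
DBH, chr9:133636113-133636412, plus strand: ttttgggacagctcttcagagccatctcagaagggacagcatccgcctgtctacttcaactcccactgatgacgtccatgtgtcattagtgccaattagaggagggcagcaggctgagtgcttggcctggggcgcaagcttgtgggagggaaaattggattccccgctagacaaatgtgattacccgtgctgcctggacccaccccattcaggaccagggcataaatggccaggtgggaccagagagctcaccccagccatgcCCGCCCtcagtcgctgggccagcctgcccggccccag
SLC18A2, chr10:117240864-117241163, plus strand: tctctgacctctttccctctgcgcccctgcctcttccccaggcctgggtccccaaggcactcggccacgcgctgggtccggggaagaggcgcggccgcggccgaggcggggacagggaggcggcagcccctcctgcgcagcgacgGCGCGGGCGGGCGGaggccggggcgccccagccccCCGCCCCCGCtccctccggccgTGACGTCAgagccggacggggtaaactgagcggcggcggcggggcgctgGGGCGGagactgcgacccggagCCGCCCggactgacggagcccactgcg
MAOA, chrX:43656049-43656348, plus strand: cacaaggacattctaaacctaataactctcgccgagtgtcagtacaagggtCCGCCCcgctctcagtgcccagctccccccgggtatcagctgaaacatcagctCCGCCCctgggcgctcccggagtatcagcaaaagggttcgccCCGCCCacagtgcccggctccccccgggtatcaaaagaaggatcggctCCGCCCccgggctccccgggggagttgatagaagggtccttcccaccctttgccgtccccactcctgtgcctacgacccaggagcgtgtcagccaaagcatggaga

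The windows of SLC18A2 and MAOA, which fell in CHLA-20, held more GC boxes than those of DDC and DBH, which describes 4 promoters only. The directions were not the same in NGP. There SLC18A2 (log2 change -0.04 ± 0.47), MAOA (0.01 ± 0.06) and DBH (0.30 ± 0.42) were not called, and DDC fell (-0.22 ± 0.06). A link to the direction of change was not tested, and TH, SLC6A2 and SLC18A1, which also changed, had no window. SLC18A2 held 5 GC boxes and MAOA 4, DBH held 1 and DDC none, and 45% of all 35116 RefSeq windows of the same length hold at least 1. The SLC18A2 window also held a cyclic AMP response element, which begins at position -48 and occurs in 1.85% of all windows, and 2 EGR matches that overlap its GC boxes, a motif found in 9.43% of windows. The upstream DDC window held an NR4A monomer element at position -87, found in 1.22% of windows, and the other DDC window held none. No AP-1 site, found in 7.71% of windows, TATA box (11.5%) or homeodomain core (4.84%) was spelled out in the 4 windows. These matches are letters in a window and not bound sites.

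Transcription factors known to act on the TH, DBH or PNMT promoter fell with the inhibitor where they changed at all. Of 10 such factors tested, 7 fell and none rose in CHLA-20, and 8 fell and none rose in NGP, beside 22.4% and 19.4% of all genes that fell. FOS, an AP-1 subunit, fell by 2.34 ± 0.09 on the log2 scale in CHLA-20 (adjusted p = 1.32e-30) and by 1.15 ± 0.05 in NGP (adjusted p = 4.21e-28). JUN, its partner, fell by 1.09 ± 0.04 and 1.18 ± 0.04, and SP1, which binds GC boxes, by 0.46 ± 0.04 and 0.44 ± 0.04. EGR1 fell by 1.18 ± 0.04 in NGP (adjusted p = 1.73e-33) and by 0.23 ± 0.06 in CHLA-20, and the effects differed by -0.94 ± 0.07 (adjusted p = 6.17e-17). The line difference in the vehicle groups included NR4A2, an orphan nuclear receptor that activates TH in dopamine neurons, with 3 and 2 counts in CHLA-20 DMSO and 335 and 337 in NGP DMSO.

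The noradrenergic transcription factors, which specify sympathetic cells, were split. Of 11 tested, 3 rose and 5 fell in CHLA-20, where 16.9% of all genes rose and 22.4% fell, and 5 rose and 4 fell in NGP, where 16.8% of all genes rose and 19.4% fell. Without CHLA-20 DMSO replicate 1 or CHLA-20 JSK591 replicate 1 the CHLA-20 count was 5 lower and 0 higher. HAND2 fell by 0.55 ± 0.04 in CHLA-20 (adjusted p = 2.78e-19), as did PHOX2A by 0.36 ± 0.04 and GATA3 by 0.36 ± 0.04. In NGP HAND2 rose (log2 change 0.34 ± 0.04, adjusted p = 3.67e-11), and the effects in the lines differed by 0.89 ± 0.05 (adjusted p = 5.64e-21). INSM1 also rose in NGP, by 0.47 ± 0.04 (adjusted p = 1.45e-13). TFAP2B was low in NGP DMSO, at 6.55 CPM against 224.7 CPM in CHLA-20 DMSO on average. HAND1 and INSM1 had the opposite line difference, with log2 values of 2.68 ± 0.05 and 2.34 ± 0.05 in favour of NGP.

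**Figure D4:**
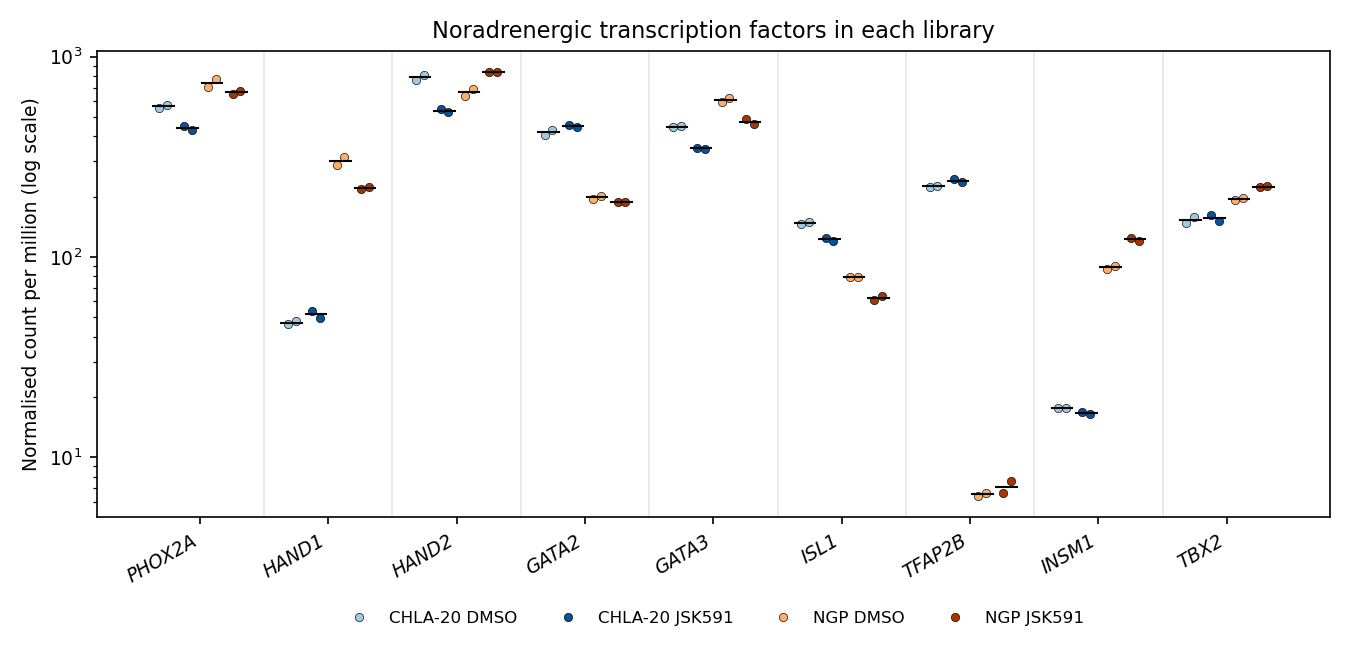
Normalised CPM (log axis) of 9 of the noradrenergic transcription factors in each library, as points, with the mean of each group as a bar. TFAP2B lies at 7.64 CPM or less in all NGP libraries and at 223.7 CPM or more in all CHLA-20 libraries, and HAND1 and INSM1 lie higher in NGP.

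Genes of tetrahydrobiopterin synthesis and recycling besides GCH1 were compared between the lines. Between the vehicle groups 4 of 6 tested were lower and 1 higher in NGP, beside 38.9% and 36.6% of all genes. The lower ones were led by SPR, the last enzyme of the synthesis (log2 difference -2.42 ± 0.16, adjusted p = 1.3e-21), PCBD2 (-1.28 ± 0.11) and PTS (-0.94 ± 0.09).

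Of the breakdown genes besides MAOA, AKR1A1, an aldehyde reductase, fell by 0.82 ± 0.05 in CHLA-20 (adjusted p = 1.89e-21) and by 0.58 ± 0.05 in NGP (adjusted p = 5.33e-16). MAOB, the second monoamine oxidase, had 0 to 9 counts a library and was not tested.

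Of the other carriers of monoamines and tyrosine, 4 of 8 were tested, and 3 fell in CHLA-20 and 2 in NGP, beside 22.4% and 19.4% of all genes. The smallest fall in CHLA-20 was that of SLC3A2 (log2 change -0.13 ± 0.04, edgeR adjusted p = 0.0153). Its call was lost with DESeq2 (adjusted p = 0.0623), with the GC trend removed (0.107) and with no filter on low counts (0.1). Without CHLA-20 JSK591 replicate 2 its log2 change was -0.064. In NGP, however, SLC3A2 fell by 0.76 ± 0.04 (edgeR adjusted p = 5.74e-23), from 181.0 to 106.8 CPM on average. Its effects in the lines differed by -0.63 ± 0.06 (adjusted p = 1.02e-12). SLC29A4, a low-affinity monoamine transporter, fell by 0.71 ± 0.04 in CHLA-20 (adjusted p = 5.93e-22) and by 0.26 ± 0.05 in NGP (adjusted p = 4.92e-06), while SLC6A2 rose in the first line. The dopamine transporter SLC6A3 was at 0 in 7 of the 8 libraries with 1 count in the other.

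Granule and secretion genes moved both ways: of 14 tested, 6 rose and 3 fell in CHLA-20 (16.9% and 22.4% of all genes), and 4 rose and 4 fell in NGP (16.8% and 19.4% of all genes). CHGB, a granin that packs amines in the granule, rose by 0.33 ± 0.04 in CHLA-20 (adjusted p = 1.33e-10) and 0.38 ± 0.04 in NGP (adjusted p = 6.97e-12). SCG2 rose in CHLA-20 (0.42 ± 0.04) and fell in NGP (-0.28 ± 0.04), and these effects differed by -0.70 ± 0.05 (adjusted p = 2.37e-16), the same signs as for DDC and SLC6A2. PAM, which amidates granule peptides, rose in CHLA-20 by 0.33 ± 0.04 (adjusted p = 9.25e-10), and the fusion protein gene STX1A fell in both lines, by 0.32 ± 0.05 and 0.35 ± 0.07.

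Genes with the most similar profile were sought by the root mean square difference of log2 CPM, each gene centred on its mean over the 8 libraries. This measure is set mainly by the difference between the lines. TH was closest to MYC (difference 0.164), then CYGB (0.474) and UBB (0.589). DDC was closest to TCTN1 (0.0699), PIK3R1 (0.0744) and BACE1 (0.108), and DBH to RPH3A (0.142), ACKR1 (0.204) and MRPL23 (0.205). SLC6A2 was closest to the overlapping AC136621.1 (0.250), then RERG (0.279) and AC067863.1 (0.361). For SLC18A1 they were LGR5 (0.143), DNM3OS (0.147) and LINC00682 (0.158), for SLC18A2 PDZD7 (0.141), OTUD1 (0.162) and MIXL1 (0.170), and for MAOA BTN3A1 (0.0407), TMEM130 (0.0412) and LRCH4 (0.0439).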

How the data were processed

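RNA-seq of 8 libraries was analysed as the read counts per Ensembl gene that the authors deposited, whole numbers with no normalization. STAR, HTSeq, DESeq2 and GRCh38 are named, without versions, in the submitters' processing notes, and the annotation and strand setting are not given in the sources used here. Lines for reads outside genes (5.15% to 6.86%), ambiguous (6.77% to 7.18%) and multiply aligned (19.2% to 22.0%) were left out. These shares are of the counts of genes and of all such lines together. Mitochondrial genes held 19.0% to 21.4% of gene counts. All 58721 identifiers matched GENCODE release 29.

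Counts were fitted with edgeR 4.0.16 in R 4.3.3 (filterByExpr, TMM, quasi-likelihood test, 1 model of 4 groups without covariates, 4 residual degrees of freedom), with Benjamini-Hochberg adjustment over 19395 genes and a threshold of 0.05. CPM were scaled by TMM, and RPKM also by exonic length, computed here. Standard errors were derived from the F statistic. Counting intervals are exact at 95% and, like the floor of 3 counts, cover counting error only. The fit was tested on simulated data. Replicates of a group differed by more than sampling noise (chi-square per degree of freedom 2.11 to 3.25). The common coefficient of variation beyond counting noise was 2.76%. The spread of each gene was moderated toward that of the other genes, so p-values do not rest on the 4 residual degrees of freedom alone.

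The 9 genes and the wider lists were chosen with earlier results of these data known. From each wider list and comparison at most 4 called genes with the largest change and no overlap between groups were eligible for naming, and 3 similar genes for each member called under treatment. Other values of listed genes and of overlapping genes were chosen after they were seen. Some results of the wider lists are not reported here. Alternatives were DESeq2 1.42.0, other scalings, filters, a GC correction, a replicate block, a fit of the 4 libraries compared and the omission of each library.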

Additional observations from a re-analysis of the deposited data

Results flagged for a closer look

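The response to JSK591 differed between NGP and CHLA-20 by the interaction test of edgeR, on the log2 scale and as NGP minus CHLA-20, for 3 of the 9 genes. SLC6A2 differed by -2.28 ± 0.13 (adjusted p = 3.66e-21), with both CHLA-20 JSK591 libraries above both CHLA-20 DMSO libraries and both NGP JSK591 libraries below both NGP DMSO libraries. DDC differed by -0.52 ± 0.07 (adjusted p = 8.69e-08), with the same arrangement of libraries. MAOA differed by 0.44 ± 0.08 (adjusted p = 1.38e-05), with lower values under the inhibitor in CHLA-20 and overlapping groups in NGP.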

How the results depend on the processing

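With a minimum of 10 counts in every library only 5 of the 9 genes stayed in the test, and the number called was 4 for JSK591 in CHLA-20, 5 for NGP DMSO against CHLA-20 DMSO and 4 for NGP JSK591 against CHLA-20 JSK591. Leaving out 1 library gave 1 to 2 genes called in NGP. Of the values of the 9 genes under alternatives, 706 kept their direction and their side of the threshold, 10 lost the call, 3 gained it and 13 changed sign, none of the 13 being called. The 3 that gained it were GCH1 for JSK591 in NGP, upward. They came with total count scaling, a minimum of 10 counts in every library and the GC trend removed. With 1 library left out, the value for JSK591 in CHLA-20 ranged from -0.28 to 0.54 for PNMT, at -0.21 without CHLA-20 DMSO replicate 2 and lowest without CHLA-20 JSK591 replicate 2. For JSK591 in NGP it ranged from -0.41 to 0.41 for SLC18A2, positive without NGP DMSO replicate 2 and without NGP JSK591 replicate 2 (0.078). For MAOA in NGP it ranged from -0.036 to 0.017, negative without CHLA-20 DMSO replicate 2, NGP DMSO replicate 2 or NGP JSK591 replicate 1, and it was -0.0056 with DESeq2 size factors and with DESeq2 and -6.9e-05 with the GC trend removed. AC136621.1 in NGP ranged from -2.5e-05 to 0.22. The difference of the effects ranged from -0.36 to 0.0070 for TH and from -0.18 to 0.060 for SLC18A1. The replicate numbers share no stated source, and same-numbered libraries correlated by -0.027 to 0.012 in their deviations. With the replicate number as a block, 7, 2, 3, 9 and 9 genes were called in the 5 comparisons, as without it. A fit of only the 4 libraries compared was not possible for the difference of the effects, which needs both lines. Low counts limit TH, DBH, PNMT, SLC18A1 and SLC18A2 in NGP.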

Other observations

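Of 14 receptors for catecholamines 6 had enough counts to be tested. Of these, 2 fell and none rose in CHLA-20, where 22.4% of all genes fell and 16.9% rose, and 1 rose and 1 fell in NGP, where 16.8% rose and 19.4% fell. ADRA2C, an inhibitory receptor for noradrenaline, had 9.02 and 10.4 CPM in CHLA-20 DMSO and 4.10 and 3.60 CPM in CHLA-20 JSK591 (log2 change -1.33 ± 0.12, edgeR adjusted p = 8.49e-15), and the effects in NGP and CHLA-20 differed by 1.49 ± 0.14 (adjusted p = 8.82e-13). ADRA2A had 22.1 and 22.6 CPM in NGP DMSO and 31.0 and 31.2 CPM in NGP JSK591 (log2 change 0.48 ± 0.07, adjusted p = 5.29e-08), and 1.18 CPM on average in CHLA-20 DMSO. The receptor that fell in NGP was ADRB1 (log2 change -1.05 ± 0.34, adjusted p = 0.0102), from 1.30 CPM on average, a call lost without NGP DMSO replicate 1 (adjusted p = 0.0586), NGP DMSO replicate 2 (0.0546) or NGP JSK591 replicate 2 (0.16).

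Genes of other transmitters were also read. SLC18A3, the vesicular acetylcholine transporter, had 16.5 and 19.4 CPM in CHLA-20 DMSO and 4.17 and 4.50 CPM in NGP DMSO. It rose in NGP (log2 change 0.56 ± 0.12, adjusted p = 0.000194) and fell in CHLA-20 (-0.28 ± 0.08, adjusted p = 0.00487), and the effects differed by 0.85 ± 0.15 (adjusted p = 9.13e-06). The CHLA-20 call was lost without CHLA-20 DMSO replicate 2 (-0.14, adjusted p = 0.331), without CHLA-20 JSK591 replicate 2 (adjusted p = 0.158), with the GC trend removed (0.41) and with DESeq2 (0.0725). ACHE, which breaks acetylcholine down, fell by 0.84 ± 0.09 in CHLA-20 (adjusted p = 3.37e-11) and had 3 and 7 counts in NGP DMSO. The granin gene SCG5 had 0 to 2 counts a library.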
